A study of Mus musculus with 6 samples.

Results

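The genes described here are 48 members of the autophagy and lysosome system, taken by symbol from a table of 24972 gene rows, and 48 of the 48 were found. They fall into 24 genes of the autophagosome, from the initiating kinase Ulk1 to the transcription factor Tfe3, and 24 genes of the lysosome, which are 6 membrane and cholesterol export genes, 12 hydrolases and their cofactors, and 6 genes of the proton pump. RNA came from ventricular cardiomyocytes of mice of the MX1gfp genotype, which both groups carried and which the labels do not describe further. One group of 3 mice received phosphate-buffered saline and the other group of 3 a single dose of doxorubicin (25 mg/kg). Both were given intraperitoneally in 100 microlitres, and hearts were digested after 48 hours. Doxorubicin is an anthracycline cancer drug that breaks DNA strands and can injure heart muscle. Myocytes were settled by gravity and not sorted, so other heart cells can be present. Age and sex are not stated in the labels used here. The study states 3 mice in each group.

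Macroautophagy encloses cytoplasm, protein aggregates or organelles in a double membrane, the autophagosome, which then fuses with a lysosome where acid hydrolases degrade the contents. The ULK kinase complex and a lipid kinase complex built on Pik3c3 and Becn1 start the membrane, ubiquitin-like conjugation attaches the Atg8 proteins (the LC3 and GABARAP families) to it, and receptors such as Sqstm1 (p62) bring in cargo. Tfeb and Tfe3 are related transcription factors that bind E-box sequences in lysosomal and autophagy promoters. In the heart the pathway clears damaged mitochondria, and loss of Lamp2 or of the glycogen-degrading enzyme Gaa causes inherited cardiomyopathy with stored vacuoles.

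The values are normalized counts as deposited. They summed to between 5410780 and 7500390 in a library, and spacing of the low values puts the reads behind them at about 7690600 to 11457100 in vehicle libraries and 3655930 to 6188930 in doxorubicin libraries, so depth and treatment cannot be told apart. The label of cardiomyocyte was borne out by its markers in every library, but these were lower in the doxorubicin libraries: 10 of 10 had a negative log2 fold change, 6 of them with groups that did not overlap. The summed level of 10 cardiomyocyte markers was 779612 to 935704 with vehicle, and with doxorubicin it was 699416, 235500 and 198037 in replicates 1 to 3. The 12 macrophage markers, none of them at 0 in any library, summed to 2703 to 2916 with vehicle, and to 4371, 7601 and 16145 in replicates 1 to 3 with doxorubicin. Of these 12 markers 11 had a positive log2 fold change and 10 had groups that did not overlap. Neutrophil markers summed to 11.2 to 21.7 and to 55.0, 627 and 471, with Ly6g at 0 in the vehicle libraries and doxorubicin replicate 1. Endothelial markers summed to 15262 to 19816 and to 24890, 26498 and 33594, and fibroblast markers to 6236 to 8274 and to 8639, 22816 and 16406. In doxorubicin replicates 2 and 3 most of the fibroblast sum was 1 gene, Dcn. It read 2446 to 2905 with vehicle and 3113, 18072 and 11326 with doxorubicin. Of the 8 fibroblast markers 7 had a positive log2 fold change, and 3 had groups that did not overlap. Col3a1 differed by -0.42. In such bulk samples fewer cells of a type and less RNA per cell cannot be told apart. Doxorubicin replicate 1 resembled the vehicle libraries, with Spearman correlations across tested genes of 0.977 to 0.982, and the other doxorubicin libraries did not, at 0.860 to 0.914. In some markers doxorubicin replicate 1 nevertheless stood apart. Atrial markers summed to 456 to 526 with vehicle and to 1431, 368 and 708 in doxorubicin replicates 1 to 3. Erythroid markers summed to 1211 to 2104 and to 9027, 250 and 421.

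Across the 48 genes there was no common direction after doxorubicin. The median log2 fold change of the 48 was 0.05, against -0.0046 for all genes tested (doxorubicin over vehicle, each value being log2 after adding 1), and 26 had a positive and 22 a negative value, where 49.6% and 50.4% of all genes did. In a limma fit over 12477 genes with Benjamini-Hochberg adjustment, 0 of the 48 passed an adjusted p of 0.05, as 0.0% of all genes did in either direction, and 8 higher and 5 lower members had an unadjusted p under 0.05, against 16.7% and 19.3% of all genes. No member is therefore called changed with all 6 libraries. All 3 doxorubicin values lay above all 3 vehicle values in 10 members (20.8%) and below them in 9 (18.75%). Over all genes tested these shares were 19.2% and 22.6% (41.8% in either direction), so the members' counts lie near the background. The median absolute log2 fold change was 0.27 among the members and 0.38 among the 8224 genes with a mean of at least 100 normalized counts; the lowest mean of a member was 115. Leaving out doxorubicin replicate 1, the same fit called 13 members higher (27.1%, against 19.3% of all genes) and 5 lower (10.4%, against 21.8%; 41.1% of all genes in either direction) at an adjusted p under 0.05. That library was the doxorubicin library most like the vehicle libraries, so values of adjusted p without it, here and below, are descriptive. With any other single library left out, 0 members passed in the direction they had with all 6 libraries.

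**Figure D1:**
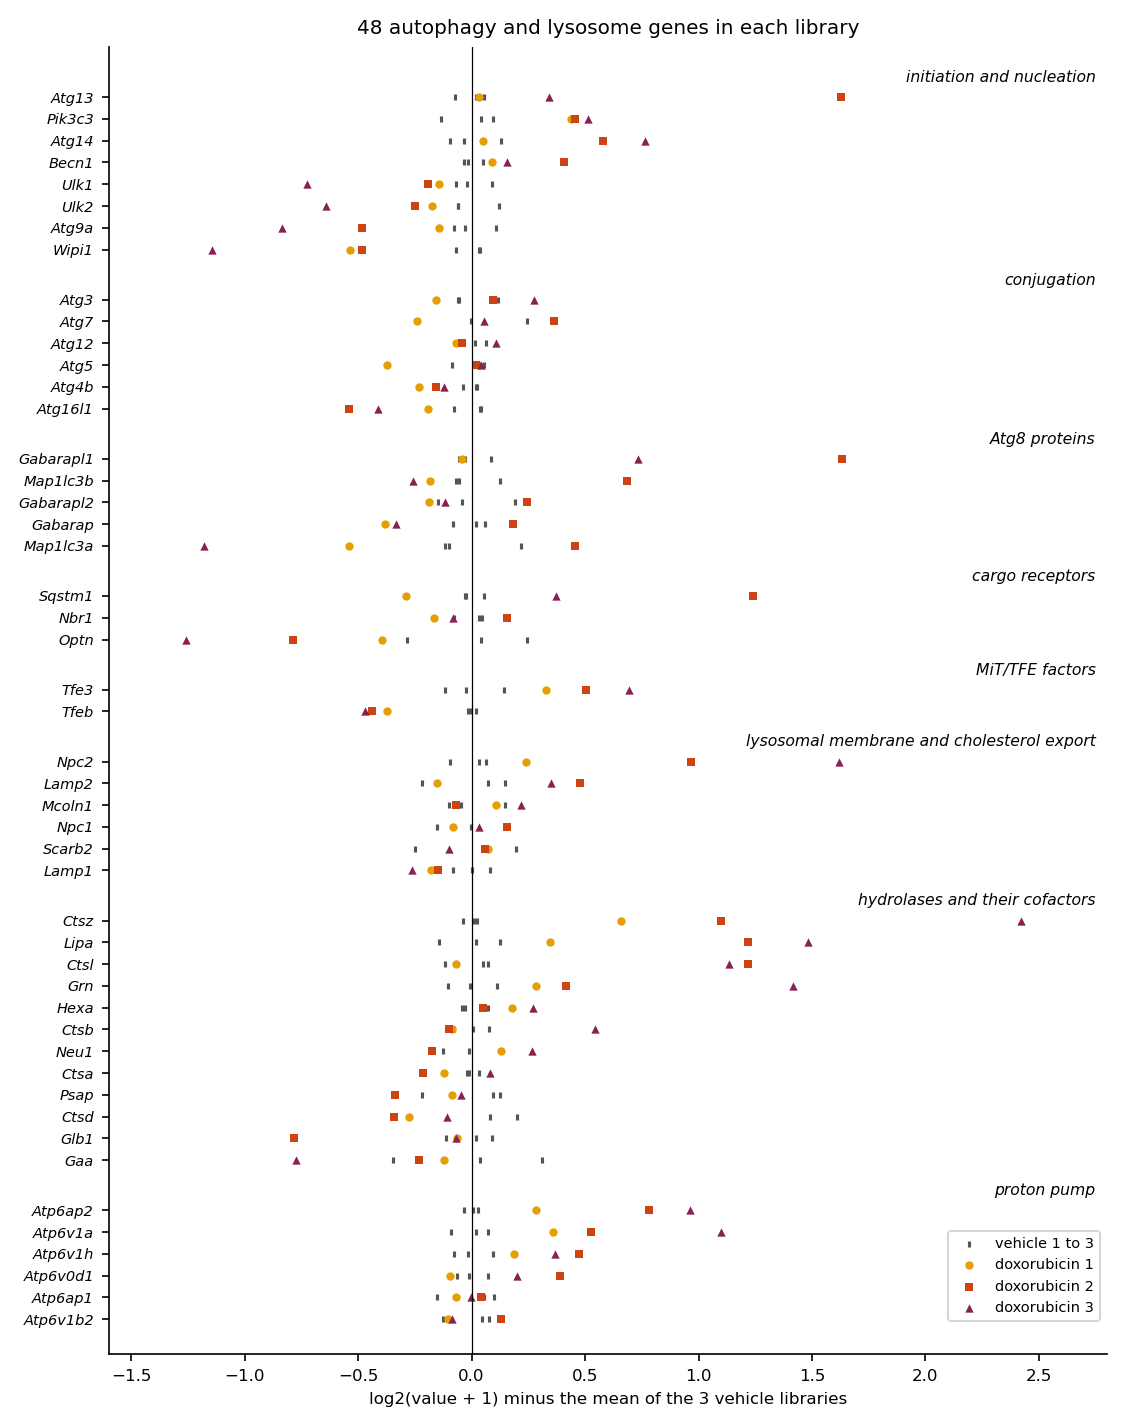
Each row is a gene and each point a library, placed at its log2(value + 1) minus the mean of the 3 vehicle libraries; grey ticks are vehicle libraries and coloured points doxorubicin replicates 1 to 3, with genes grouped by role. Replicate 1 lies more than 0.5 from the vehicle mean in 3 genes, replicate 2 in 15 and replicate 3 in 19. The widest departures above it are Ctsz in replicate 3 (2.42) and Gabarapl1 and Atg13 in replicate 2 (1.63 each), and the widest below it is Optn in replicate 3 (-1.26).

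The autophagosome and lysosome classes differed little, and the order of their medians was not the same in every doxorubicin library. The 24 autophagosome genes had a median log2 fold change of -0.03, with 10 positive and 14 negative values, and groups that did not overlap in 3 higher (12.5%) and 8 lower genes (33.3%). The 24 lysosome genes had a median of 0.10, with 16 positive and 8 negative values, and groups that did not overlap in 7 higher (29.2%) and 1 lower gene (4.17%), where these shares were 19.2% and 22.6% of all genes. The difference between the medians was 0.13. Relative to the vehicle mean, the autophagosome and lysosome medians were -0.18 and -0.06 in doxorubicin replicate 1, 0.17 and 0.10 in replicate 2 and -0.10 and 0.24 in replicate 3, so they took opposite signs in replicate 3 alone. Without doxorubicin replicate 1, 6 autophagosome genes (25.0%) were called higher and 5 (20.8%) lower. In the same fit 7 lysosome genes (29.2%) were called higher and 0 lower, against 19.3% and 21.8% of all genes. Within each library, the mean log2(value + 1) of the lysosome genes exceeded that of the autophagosome genes by 0.31, 0.47 and 0.43 in vehicle replicates 1 to 3 and by 0.62, 0.42 and 1.01 in doxorubicin replicates 1 to 3. A scale factor common to a library nearly cancels in this gap. Doxorubicin replicate 3 had the widest gap, replicate 2 lay inside the vehicle range, and so the groups overlapped. Directions near zero did depend on scaling: with every library set to the same total, which moved the median of all genes to 0.29, 16 of 24 autophagosome and 22 of 24 lysosome genes were positive, with medians of 0.28 and 0.40. Setting totals equal shifts every gene by nearly the same amount, and 8598 of all 12476 gene names were then positive. Quantile normalization gave 14 and 22 positive genes, with medians of 0.02 and 0.25. There 6024 of all 12476 gene names were positive, with a median of -0.02.

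**Figure D2:**
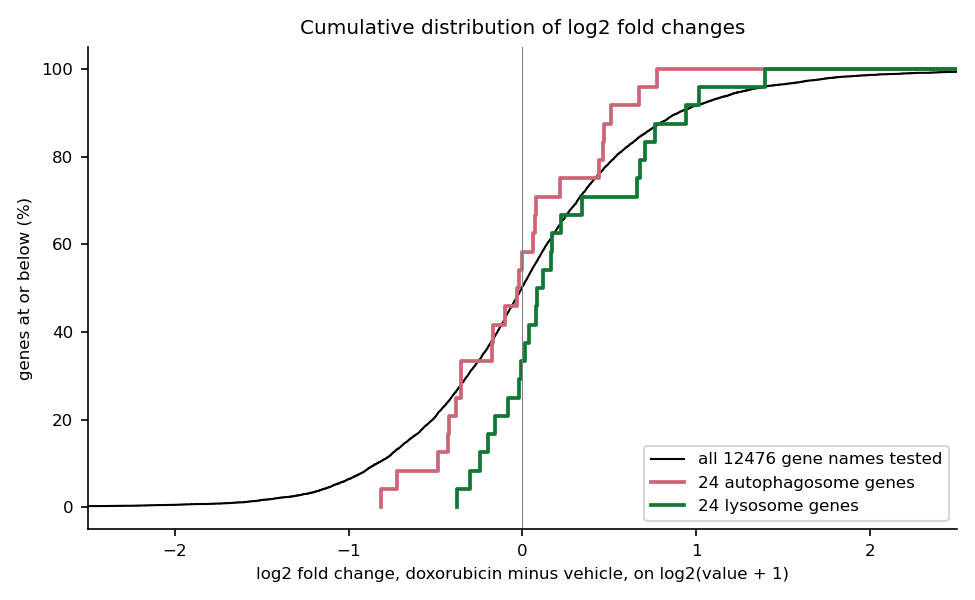
The curves give the percentage of genes (vertical axis) at or below each log2 fold change, doxorubicin over vehicle on the log2(value + 1) scale (horizontal axis), for all 12476 gene names tested, 24 autophagosome genes and 24 lysosome genes. The autophagosome curve runs from -0.81 to 0.77 and the lysosome curve from -0.38 to 1.39, and the lowest lysosome gene, Gaa, lies above the lowest autophagosome gene, Optn.

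The promoters of these genes were also described by their letters. Tfeb and Tfe3 bind E-boxes in lysosomal and autophagy promoters, so a higher share among members is not independent of their choice. The E-box letters CACGTG, which read the same on both strands and form the core of the site bound by Tfeb and Tfe3, were searched in RefSeq windows (GRCm38.p6, the assembly of mm10) from 250 bases before to 50 bases after each start, for the 39 members with a window. They stood in 13 of the 39 (33.3%), against 11.8% of 9805 tested genes and 8.09% of all 27025 genes with a window. The longer form TCACGTG, counted on either strand and nested in the first, stood in 11 members (28.2%), against 6.97% and 4.29%. The matches sat mainly in lysosome genes, 9 of 20 (45.0%) for the core and 8 of 20 (40.0%) for the longer form, against 4 and 3 of 19 autophagosome genes. A match is a description of letters, not of binding. The following stretches are examples chosen for a spread of roles: membrane genes and a conjugation gene with several matches, the abundant hydrolase Ctsd, the glycogen-degrading Gaa and the pump subunit Atp6v1a. Other members with matches, Ctsa with 2 among them, and a second match of Ctsd farther from its start are not printed; E-box letters are in capitals, and each reads 5′ to 3′ on the gene's strand.
Lamp1 (chr8:13159088-13159160, + strand, ending at the base before the start): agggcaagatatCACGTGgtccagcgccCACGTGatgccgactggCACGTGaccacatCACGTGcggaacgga
Mcoln1 (chr8:3500436-3500491, + strand): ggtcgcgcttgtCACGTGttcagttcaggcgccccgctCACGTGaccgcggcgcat
Atg3 (chr16:45158723-45158775, + strand): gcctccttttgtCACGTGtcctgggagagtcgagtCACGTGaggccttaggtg
Ctsd (chr7:142387908-142387937, - strand): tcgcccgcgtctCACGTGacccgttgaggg
Gaa (chr11:119267811-119267840, + strand): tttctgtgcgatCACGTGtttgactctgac
Atp6v1a (chr16:44139373-44139402, - strand): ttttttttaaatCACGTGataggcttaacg

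The log2 fold changes of the 11 members with the longer form ran from -0.38 to 0.66 with a median of 0.06, and those of the 28 without it from -0.81 to 1.39 with a median of 0.04. Ctsz, Lipa and Npc2, the members with the highest log2 fold changes, and Optn and Wipi1, those with the lowest, have windows without these letters. Lamp1, with 4 matches within the 73 bases before its start, differed by -0.20.

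The factors themselves differed in direction. Tfeb (chromosome 17, 47737037 to 47792416, RefSeq span on GRCm38), a master regulator of lysosomal genes, stood at 318, 314 and 311 normalized counts in vehicle replicates 1 to 3 and at 242, 231 and 227 in doxorubicin replicates 1 to 3. It was lower in every doxorubicin library than in any vehicle library, at 314 ± 3.71 against 233 ± 7.85 (SD, n = 3 in each group). The log2 fold change was -0.43 (SE 0.13, limma adjusted p 0.0859, and 0.0282 without doxorubicin replicate 1). It was -0.13 with equal totals. Tfe3, its X-linked relative (chromosome X, 7762530 to 7775202), read 200.5, 167 and 178 in the vehicle libraries and 228, 257 and 294 in the doxorubicin libraries. Its groups did not overlap either, and its log2 fold change was 0.51 (SE 0.16, adjusted p 0.0863, and 0.0181 without doxorubicin replicate 1). Libraries differed in transcripts that tell the sexes apart, with Xist in vehicle replicate 3 and doxorubicin replicates 1 and 3 and Y-linked Ddx3y in the other 3. The median log2 difference of the 24 autophagosome genes was 0.19 among libraries with Ddx3y and -0.16 among those with Xist, and that of the 24 lysosome genes was 0.16 and 0.09, with too few libraries for a test. Tfe3 was higher after doxorubicin in both kinds, at 257 against 200.5 and 167 in libraries with Ddx3y and at 228 and 294 against 178 in those with Xist. An overlapping non-coding gene, Gm39487, shares 3903 bases of the Tfe3 span, and use of strand in counting is not given in the sources used here.

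Among the genes that start the autophagosome, the kinases had negative and the lipid kinase complex positive log2 fold changes. Ulk1 and Ulk2, the paralogous kinases that receive signals from mTORC1 and AMPK, had groups that did not overlap. Ulk1 read 945, 978 and 1056 in the vehicle libraries and 897, 867 and 600.3 in the doxorubicin libraries, which is -0.35 on the log2 scale (SE 0.19, adjusted p 0.21). Doxorubicin replicate 3 held the lowest value, and the difference was -0.17 when it was left out. Ulk2 differed by -0.36 (adjusted p 0.173), or -0.21 without doxorubicin replicate 3. Equal totals left both near zero, at -0.05 each.

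Pik3c3, the catalytic subunit that makes phosphatidylinositol 3-phosphate, read 157, 163 and 138 with vehicle and 207, 209 and 218 with doxorubicin. All 3 doxorubicin libraries, replicate 1 included, sat together above the vehicle libraries, and the log2 fold change was 0.47 (SE 0.14, adjusted p 0.0859). Its partners Becn1 and Atg14, which direct the kinase to the autophagosome, differed by 0.22 (adjusted p 0.296) and 0.46 (adjusted p 0.163). Groups were apart for Becn1, which differed by 0.12 without doxorubicin replicate 2, and overlapped for Atg14. Atg13, a scaffold of the ULK complex, had the highest log2 fold change of this role at 0.67 (SE 0.38, adjusted p 0.23). Its values were 432, 405 and 443 in the vehicle libraries and 437, 1320.1 and 541 in the doxorubicin libraries. Replicate 2 alone carried most of this, and without it the difference was 0.19.

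Wipi1 (chromosome 11, 109573521 to 109611389), which binds phosphatidylinositol 3-phosphate on the growing membrane, had the lowest log2 fold change of the role. It stood at 746, 697 and 748 in the vehicle libraries and at 503, 521 and 329.7 in the doxorubicin libraries. Every doxorubicin library, replicate 1 included, was lower than every vehicle library, and the log2 fold change was -0.72 (SE 0.20, adjusted p 0.0859, and 0.014 without doxorubicin replicate 1), or -0.42 with equal totals. A non-coding gene, Gm39442, shares 17544 bases of its span. Atg9a, the lipid scramblase carried by the vesicles that seed the membrane, differed by -0.49 (adjusted p 0.122, and 0.0131 without doxorubicin replicate 1), and its groups did not overlap. The difference was -0.31 without doxorubicin replicate 3 and -0.19 with equal totals.

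The conjugation enzymes differed little. Their 6 log2 fold changes ran from -0.38 to 0.07, with a median absolute value of 0.09. Atg7, the activating enzyme that starts both conjugation chains, read 130.2, 111 and 155 with vehicle and 111, 168 and 136 with doxorubicin, with groups that overlapped (log2 fold change 0.06, SE 0.21, adjusted p 0.86). Atg12, a ubiquitin-like protein, stood at 273 ± 13.0 against 273 ± 18.6 (SD, n = 3 in each group). Atg3, the enzyme that hands LC3 to lipid, read 224, 198 and 199 with vehicle and 185, 220.1 and 249.7 with doxorubicin, which also overlapped (0.07, adjusted p 0.775), and its value without doxorubicin replicate 3 was -0.03. Atg5, the partner of Atg12, differed by -0.10. Atg4b, the protease that trims Atg8 proteins, and Atg16l1, which places the conjugation complex on the membrane, were the members of the role whose groups did not overlap, both lower. Atg16l1 read 327, 303 and 329 with vehicle and 279.7, 219 and 239.8 with doxorubicin (-0.38, SE 0.15, adjusted p 0.114), and Atg4b differed by -0.17 (adjusted p 0.375), which turned to 0.13 with equal totals.

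Doxorubicin replicate 2 stood apart in the Atg8 genes and in Sqstm1. In all 5 Atg8 genes replicate 2 was the highest doxorubicin library, where 29.8% of all tested genes have it highest. Per kilobase of the longest coding transcript, Map1lc3a was the most abundant of them in the vehicle libraries at 4011 normalized counts, followed by Gabarap at 1366, Map1lc3b at 821, Gabarapl1 at 405 and Gabarapl2 at 334. Reads of these close relatives may be shared among them and with their processed pseudogenes, so their levels are uncertain.

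Gabarapl1 had the highest log2 fold change of the family. It read 721, 708 and 781 in the vehicle libraries and 716, 2283 and 1223 in the doxorubicin libraries. Replicate 1 lay inside the vehicle range while replicates 2 and 3 lay above it. The log2 fold change was 0.77 (SE 0.38, adjusted p 0.176), and 1.18 without doxorubicin replicate 1 (adjusted p 0.00728) but 0.35 without replicate 2. Map1lc3a stood at 5158, 4134 and 4089 with vehicle and 3047, 6083 and 1960.4 with doxorubicin. Its doxorubicin libraries held both the highest and the lowest value of the 6, and the log2 fold change of -0.42 (SE 0.39, adjusted p 0.46) lay within that spread. It was -0.86 without replicate 2 and -0.04 without replicate 3. Map1lc3b, whose protein is the usual marker of autophagosomes, read 2351, 2080.0 and 2057 with vehicle and 1900.2, 3470.2 and 1803 with doxorubicin (0.08, SE 0.27, adjusted p 0.849). It was above the vehicle range in replicate 2 and below it in the others, and its sign turned to -0.22 without replicate 2. Gabarap and Gabarapl2 differed by -0.18 and -0.02.

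Among the cargo receptors, Sqstm1 and Optn separated. Sqstm1, which binds ubiquitin and LC3 and is itself degraded by autophagy, read 3027, 3208 and 3042 in the vehicle libraries and 2528, 7312 and 3999 in the doxorubicin libraries. It was below the vehicle range in replicate 1 and above it in replicates 2 and 3, so the groups overlapped (log2 fold change 0.44, SE 0.36, adjusted p 0.403, and 0.0398 without doxorubicin replicate 1). Without replicate 2 the difference was 0.04. Optn (chromosome 2, 5020521 to 5064399), a receptor for damaged mitochondria and bacteria, had the lowest log2 fold change of the 48 members. Its values were 733, 916 and 1056 with vehicle and 678, 516 and 372 with doxorubicin, lower in every doxorubicin library than in any vehicle library, and the log2 fold change was -0.81 (SE 0.25, adjusted p 0.0859, and 0.00638 without doxorubicin replicate 1), or -0.51 with equal totals. Nbr1, a relative of Sqstm1, differed by -0.03 (SE 0.15, adjusted p 0.9).

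**Figure D3:**
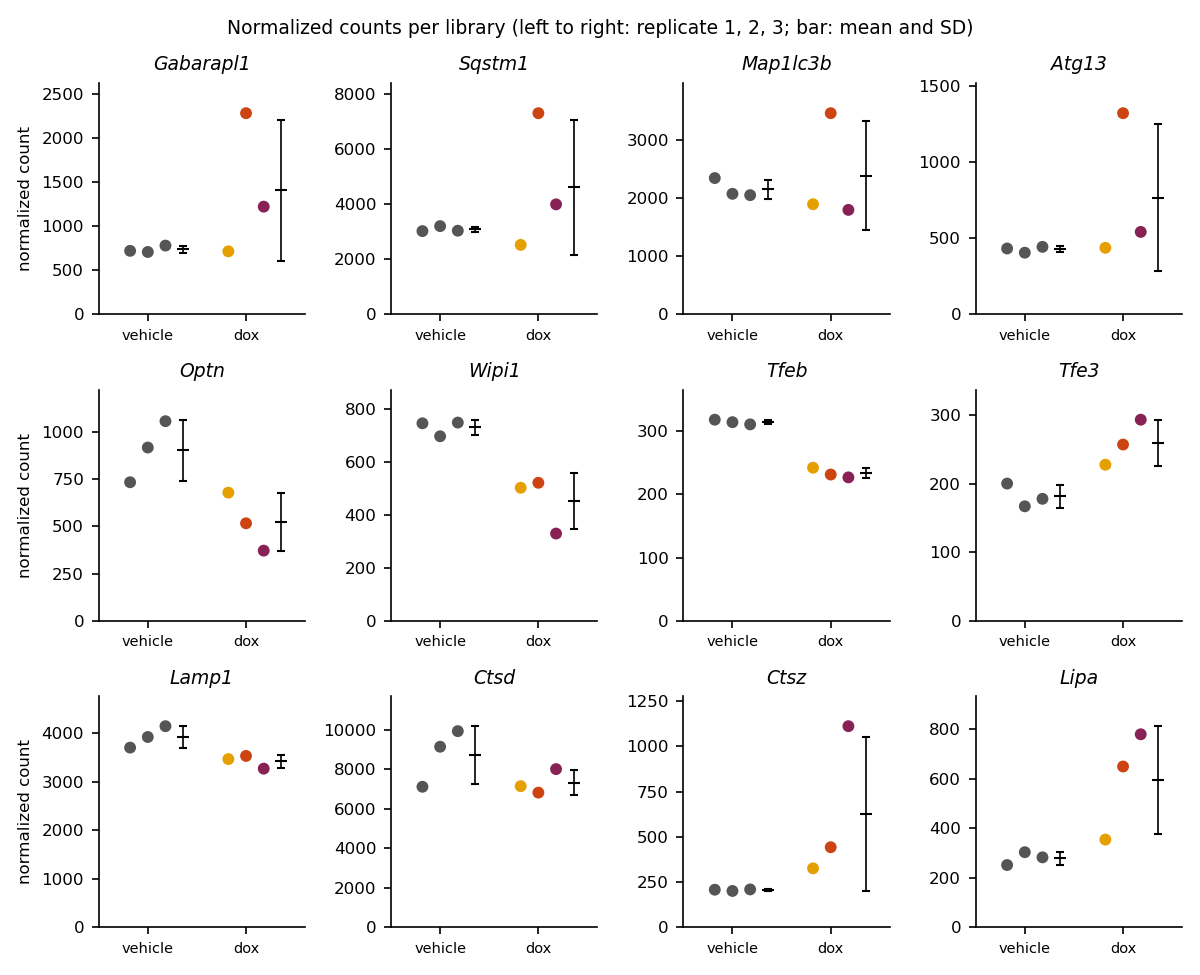
Normalized counts (vertical axes from 0) of 12 members in vehicle replicates 1 to 3 (grey) and doxorubicin replicates 1 to 3 (coloured, left to right); the bar beside each group is its mean and SD, and dox stands for doxorubicin. Tfeb, Wipi1, Optn and Lamp1 are lower and Tfe3, Ctsz and Lipa higher in all 3 doxorubicin libraries, whereas Gabarapl1, Sqstm1, Map1lc3b and Atg13 peak in replicate 2, at 2283, 7312, 3470.2 and 1320.1.

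Lysosomal membrane genes differed by 0.22 or less in either direction, apart from Npc2. Lamp1, the most abundant membrane glycoprotein of the lysosome, read 3703, 3921 and 4144 with vehicle and 3466, 3532 and 3269.8 with doxorubicin. Every doxorubicin library was slightly lower than every vehicle library, at 3923 ± 221 against 3423 ± 136 (SD, n = 3 in each group; log2 fold change -0.20, SE 0.17, adjusted p 0.436), but the sign turned to 0.11 with equal totals and 0.19 with quantile normalization. Lamp2, needed for fusion and for import of proteins into the lysosome, read 1450.3, 1873 and 1776 with vehicle and 1518, 2353 and 2153 with doxorubicin (0.22, SE 0.22, adjusted p 0.475), with groups that overlapped and a difference of 0.10 without doxorubicin replicate 2 and 0.41 without replicate 1. Scarb2, Npc1 and the calcium channel Mcoln1 differed by 0.01, 0.04 and 0.09, with adjusted p of 0.968, 0.879 and 0.707.

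Npc2, a soluble protein that passes cholesterol to Npc1 for export, was the exception. It stood at 518, 463 and 506 in the vehicle libraries and at 585, 968 and 1523 in the doxorubicin libraries, with no overlap. The log2 fold change was 0.94 (SE 0.32, adjusted p 0.0916, and 0.00211 without doxorubicin replicate 1), and 0.60 without replicate 3. Its partner Npc1 read 374 ± 40.0 against 382 ± 32.0 (SD, n = 3 in each group).

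Of the 12 hydrolases and cofactors, the 3 most abundant per kilobase had groups that overlapped and 3 others were higher in every doxorubicin library. Per kilobase, the vehicle libraries held 4100.4 normalized counts of Ctsd and 3939 of Psap, followed by Ctsb at 831, while Ctsz stood at 143 and Lipa at 94.0. Ctsd, an aspartic protease, read 7109.8, 9134 and 9921 with vehicle and 7140.3, 6815 and 8002 with doxorubicin (-0.24, SE 0.24, adjusted p 0.493), within the replicate spread, and the difference was -0.14 without vehicle replicate 3. Psap, the precursor of the saposins that help degrade sphingolipids, read 10466 ± 1324 against 9371 ± 993 (-0.16, adjusted p 0.675), or -0.07 without doxorubicin replicate 2. Both signs turned positive with equal totals, at 0.06 and 0.15. Ctsb, a cysteine protease, read 3728, 3949.8 and 4147 with vehicle and 3703, 3671 and 5733 with doxorubicin. Only replicate 3 left the vehicle range on the high side, and the log2 fold change of 0.12 (SE 0.23, adjusted p 0.739) became -0.09 without it. Gaa, the acid glucosidase that degrades glycogen, had the lowest value of the role at -0.38 (SE 0.24, adjusted p 0.284), which was -0.18 without doxorubicin replicate 3, -0.22 without vehicle replicate 3 and -0.07 with equal totals. It read 996, 1301 and 1570.0 with vehicle and 1164, 1078 and 741 with doxorubicin, with groups that overlapped.

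Ctsz (chromosome 2, 174427494 to 174439039), a carboxypeptidase of the cathepsin family, had the highest log2 fold change of the 48 members. It stood at 208, 201 and 209.8 in the vehicle libraries and at 326, 443 and 1111 in the doxorubicin libraries, or 206 ± 4.53 against 626 ± 423 (SD, n = 3 in each group). No values overlapped, and the log2 fold change was 1.39 (SE 0.41, adjusted p 0.0859, and 0.00463 without doxorubicin replicate 1). Lipa (chromosome 19, 34492316 to 34527474), the acid lipase that frees cholesterol and fatty acids from lipoproteins, read 252, 303 and 282 with vehicle and 354, 649 and 779 with doxorubicin, also without overlap (1.02, SE 0.28, adjusted p 0.0859, and 0.000655 without doxorubicin replicate 1). Grn, the progranulin precursor of lysosomal granulins, read 665, 773 and 711 with vehicle and 872, 955 and 1911 with doxorubicin (0.71, SE 0.29, adjusted p 0.131), and its difference without replicate 3 was 0.35. In each of the 3, as in Npc2, replicate 3 was highest and replicate 1 was lowest among the doxorubicin libraries. Replicate 3 was the highest doxorubicin library in 9 of the 12 hydrolase genes and in 32.7% of all genes tested, and replicate 1 in 37.6% of all.

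The summed macrophage markers followed the same order of libraries, at 4371, 7601 and 16145 in doxorubicin replicates 1 to 3. Relative to the vehicle mean on the log2 scale that sum stood at 0.63, 1.43 and 2.52, beside 0.66, 1.10 and 2.42 for Ctsz, 0.35, 1.22 and 1.48 for Lipa, 0.24, 0.97 and 1.62 for Npc2 and 0.28, 0.42 and 1.42 for Grn. Lyz2, an enzyme abundant in macrophages, read 798, 772 and 728 in the vehicle libraries and 1382, 2083 and 6811 in the doxorubicin libraries. This order was not shared by all 12 markers: 9 were highest in replicate 3, while Mrc1 and Cd163 were highest in replicate 2 (778 and 795, against 669.6 and 623 in replicate 3) and Cx3cr1 in replicate 1. Nor was the order particular to macrophage markers. The endothelial sum had it too, at 24890, 26498 and 33594 in doxorubicin replicates 1 to 3. Its single markers were mixed, with 4 of 8 highest in replicate 3, 2 in replicate 2 and 2 in replicate 1. The cardiomyocyte sum had the reverse order, at 699416, 235500 and 198037. Other members, Tfe3, Pik3c3, Atg14, Atp6v1a and Atp6ap2 among them, also rose from doxorubicin replicate 1 to 3. The part of macrophages or of other cells in the values of these members was not tested. Without doxorubicin replicate 3, the log2 fold changes were 0.88 for Ctsz, 0.78 for Lipa, 0.60 for Npc2 and 0.35 for Grn. Each of these genes was highest in replicate 3, so leaving that library out lowers its value in any case.

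**Figure D4:**
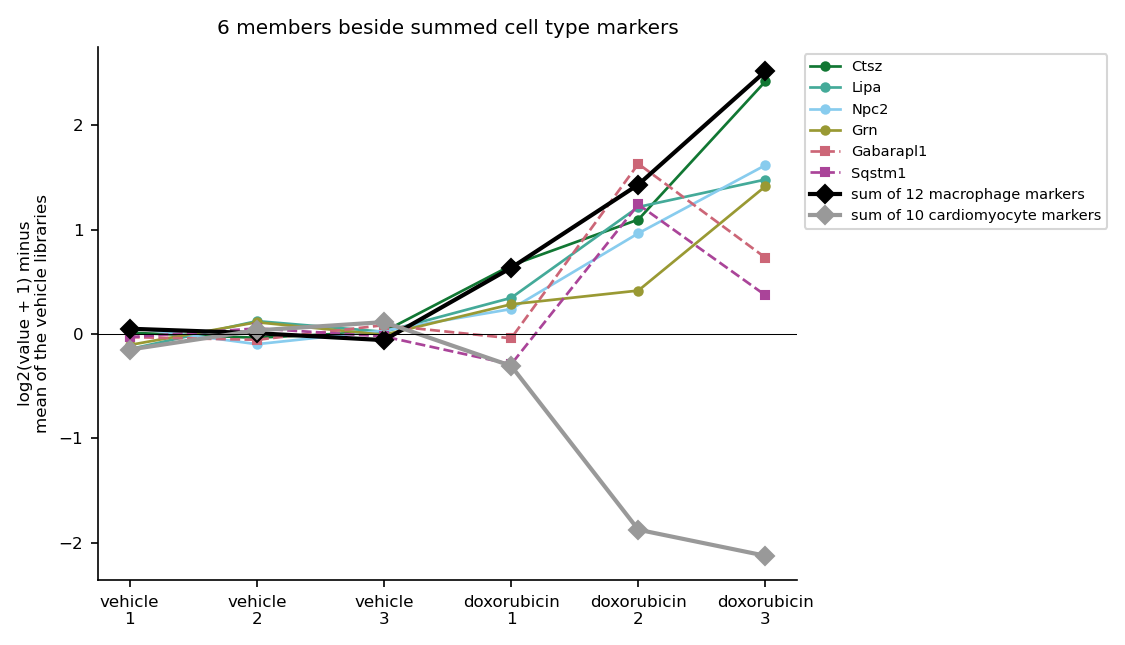
Lines give log2(value + 1) minus the mean of the vehicle libraries (vertical axis) in each of the 6 libraries (horizontal axis) for 6 members and for the summed levels of 12 macrophage and 10 cardiomyocyte markers. Ctsz, Lipa, Npc2 and Grn are highest in doxorubicin replicate 3, as the macrophage sum is (2.52), whereas Gabarapl1 and Sqstm1 are highest in replicate 2, and the cardiomyocyte sum stands at -2.13 in replicate 3.

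Ctsl is a cysteine protease whose loss causes cardiomyopathy in mice. It read 1179, 1345 and 1325 in the vehicle libraries and 1219, 2982 and 2814 in the doxorubicin libraries. Replicate 1 lay inside the vehicle range and replicates 2 and 3 were nearly equal above it. The log2 fold change was 0.76 (SE 0.34, adjusted p 0.147), and 1.18 without doxorubicin replicate 1 (adjusted p 0.000981). The protective protein Ctsa, the hexosaminidase subunit Hexa, the galactosidase Glb1 and the sialidase Neu1 had groups that overlapped, with log2 fold changes of -0.09, 0.17, -0.30 and 0.08 and adjusted p of 0.688, 0.388, 0.354 and 0.771 in that order. Glb1 was low in 1 library, doxorubicin replicate 2, at 79.5 against 127 to 146 in the other 5.

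The 6 members from the proton pump, which acidifies the lysosome, had the highest median of the larger roles at 0.25, and they differed among themselves. The 13 further pump subunits described below had a median of -0.20, with 4 positive and 9 negative values. The 3 genes Atp6v1a, Atp6v1h and Atp6ap2 had groups that did not overlap, all higher. Atp6v1a, the subunit that hydrolyses ATP, read 236, 211 and 228 with vehicle and 288, 324 and 483 with doxorubicin (0.66, SE 0.21, adjusted p 0.0864, and 0.0116 without doxorubicin replicate 1), and the difference was 0.44 without replicate 3. Atp6ap2, an X-linked accessory protein also known as the prorenin receptor, had the highest log2 fold change of the 6 pump members and read 166, 174 and 171 with vehicle and 208, 293 and 333 with doxorubicin (0.68, SE 0.20, adjusted p 0.0859, and 0.00275 without doxorubicin replicate 1). In the libraries with Ddx3y it read 293 against 166 and 174, and in those with Xist 208 and 333 against 171. Atp6v1h, a regulatory subunit, differed by 0.34 (adjusted p 0.139).

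The other 3 pump members had groups that overlapped. Atp6v0d1, which links the membrane and cytosolic sectors, read 333, 314 and 302 with vehicle and 296, 415 and 363 with doxorubicin (0.16, SE 0.16, adjusted p 0.486). Atp6v1b2, partner of Atp6v1a in the catalytic ring, read 759, 659.8 and 743 with vehicle and 669.8, 788 and 677 with doxorubicin, a difference of -0.02 (SE 0.14, adjusted p 0.936). The accessory protein Atp6ap1, X-linked like Atp6ap2, differed by -0.01 (SE 0.14, adjusted p 0.969). Atp6v1a and Atp6v1b2, whose products assemble into 1 ring, thus differed in their change, at 0.66 and -0.02, and that contrast between them was not tested.

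Beyond the 48 members, 148 further genes of the pathway were listed, of which 147 were tested and 0 passed an adjusted p of 0.05 with limma, while 22 higher and 24 lower genes had an unadjusted p under 0.05 (16.7% and 19.3% of all genes did). Their median log2 fold change was 0.03, with groups that did not overlap in 32 higher (21.8%) and 31 lower genes (21.1%), near the 19.2% and 22.6% of all genes. The genes named from them are the 2 highest and 2 lowest of each list among those with a mean of at least 50 normalized counts. Of 36 further lysosomal hydrolases 28 were positive and 8 negative (median 0.35). With equal totals 30 were positive and 6 negative, where 8598 of all 12476 gene names were positive. Groups of these hydrolases did not overlap in 16 higher (44.4%) and 2 lower genes (5.56%), against 19.2% and 22.6% of all genes. The highest was Ctss, a cathepsin of antigen-presenting cells, at 89.9, 91.2 and 107 with vehicle and 188, 328 and 1524 with doxorubicin (2.24, adjusted p 0.0859), followed by the carboxypeptidase Scpep1 at 1.18. The lowest were Smpd1, the acid sphingomyelinase, at 1759, 2010.4 and 2093 with vehicle and 1544, 652 and 607 with doxorubicin (-1.20, adjusted p 0.0859), and the thioesterase Ppt2 at -0.43.

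Most genes of the control layer above autophagy had negative values. Of 31 genes of mTORC1, AMPK and folliculin 7 were positive and 24 negative (median -0.29). Groups did not overlap in 2 higher (6.45%) and 12 lower genes (38.7%), against 19.2% and 22.6% of all genes. With equal totals 16 were positive and 15 negative, where 8598 of all 12476 gene names were positive and 3878 negative. Quantile normalization gave 7 positive and 24 negative, where 6024 of all 12476 gene names were positive. Prkaa2, the AMPK catalytic subunit of muscle, read 1329, 1474 and 1899 with vehicle and 1294, 611 and 485 with doxorubicin (-1.09, adjusted p 0.0878), and Rragd, a GTPase that recruits mTORC1 to the lysosome, differed by -1.22. The highest were both inhibitors of mTORC1 signalling, the arginine sensor Castor1 at 1.83 and the stress-induced sestrin Sesn2 at 1.37. Sesn2 read 26.3, 20.9 and 39.9 with vehicle and 27.5, 109 and 133 with doxorubicin, with groups that overlapped because replicate 1 lay in the vehicle range. The summed cardiomyocyte markers were lowest in doxorubicin replicates 2 and 3, as Prkaa2 and Rragd were, and their part in these values was not tested.

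Of 38 further autophagy genes 18 were positive and 20 negative (median -0.04), and with equal totals 30 and 8. With equal totals 8598 of all 12476 gene names were positive, which also bears on the counts below. Trp53inp1, a p53 target whose product binds Atg8 proteins, was the highest at 94.8, 136 and 128 with vehicle and 145, 1001 and 743 with doxorubicin (2.00, adjusted p 0.0878). The tethering subunit Vps11 followed at 0.50, and the lowest were the protease Atg4d at -0.92 and the lipid scramblase Tmem41b at -0.75. Of 29 tested membrane and sorting genes 17 were positive and 12 negative (median 0.16), and with equal totals 22 and 7, from Abca2 at -0.95 and Laptm4b at -0.64 to Mfsd1 at 0.67 and Laptm5, a lysosomal protein of blood cells, at 1.38. Of 13 further pump subunits 4 were positive and 9 negative (median -0.20), and with equal totals 10 and 3. The highest of these was Tcirg1, the pump isoform of osteoclasts and immune cells, at 87.4, 108 and 74.7 with vehicle and 149, 159.9 and 412 with doxorubicin (1.26, adjusted p 0.086), followed by Atp6v0e2 at 0.11; the lowest were Atp6v1d at -0.52 and Atp6v0a2 at -0.45. Ctss, Laptm5 and Tcirg1 were each highest in doxorubicin replicate 3, as 9 of the 12 macrophage markers were. Replicate 3 was also the highest doxorubicin library in 24 of the 36 further hydrolases and 14 of the 29 membrane and sorting genes. The same held for 3 of the 13 further pump subunits and for 32.7% of all genes tested. The part of macrophages or of other cells in these values was not tested.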

How the data were processed

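RNA from 6 preparations of ventricular cardiomyocytes, 3 per group, was sequenced. The deposited table holds normalized counts per gene, a signal that is not whole reads; per the series' design text, reads were aligned to mm10 with STAR and compared in BaseSpace, and the submitters' processing notes name STAR 2.6.1a and Salmon. How the authors normalized is not given in the sources used here. Groups follow the sample titles.

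Genes with a mean of at least 10 normalized counts (12477 rows) were tested on log2(value + 1) with limma 3.58.1 (R 4.3.3, moderated statistics with a mean-variance trend, two-sided), with Benjamini-Hochberg adjustment over all of them and a threshold of 0.05. The fold change of low genes is understated on this scale. With 3 against 3 libraries an exact permutation test cannot go below 0.1, so none is given for single genes. The script was tested on simulated data. Sums, counts and promoter matches used Python 3.11.15, and plots matplotlib 3.10.9.

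The 48 members and the lists were chosen with earlier results of these data known. Per-library values are given for a set list of genes and for the highest and lowest member of each role; of other pathway lists, the 2 highest and 2 lowest genes with a mean of at least 50 are named. Values of other members are given where the text turns on them, and Pik3c3 and Lipa, among others, were chosen after their values were seen. Reads were estimated from the spacing of low values, of which 80.3% to 92.4% lay within 0.1 of a whole step, so no count test was run. Same-numbered libraries did not deviate together. The 18 alternatives were other pseudocounts, filters, scalings and variance models, a replicate block, a term for Xist or Y-linked transcripts, library weights and leaving out each library.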

Additional observations from a re-analysis of the deposited data

How the results depend on the processing

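Over all genes tested, limma with all 6 libraries called 0 higher and 0 lower at an adjusted p of 0.05 (2081 and 2404 at an unadjusted p under 0.05). At an adjusted p under 0.10 it called 1383 and 1639, and with library weights, which gave doxorubicin replicate 1 a weight of 0.277, 1954 and 2318. Leaving out 1 library gave 0 to 2409 higher and 0 to 2718 lower calls; the highest counts were without doxorubicin replicate 1. Of the 48 members, 16 passed with library weights, 11 higher and 5 lower, where 1954 and 2318 of 12477 genes did. Without doxorubicin replicate 1, 18 members passed, 27.1% higher and 10.4% lower. The shares of all genes were 19.3% and 21.8%, or 41.1% in either direction. With any other single library left out, 0 members passed in the direction they had with all 6 libraries. The numbers did not pair the samples (correlations of -0.13, 0.03 and -0.09); with the replicate block 0 genes were higher and 0 lower, the smallest adjusted p was 0.115, and no member changed direction. Equal totals moved the median log2 fold change to 0.35 for all members, 0.28 for autophagosome and 0.40 for lysosome genes. Members near zero changed direction. Equal totals gave Atg12 0.30, Atg4b 0.13, Atg5 0.20, Atp6ap1 0.29, Atp6v1b2 0.28, Ctsa 0.22, Ctsd 0.060, Gabarap 0.12, Gabarapl2 0.28, Lamp1 0.11, Nbr1 0.27 and Psap 0.15. Quantile normalization gave Atg12 0.012, Atp6ap1 0.15, Atp6v1b2 0.073, Ctsa 0.039, Ctsd 0.28, Gabarap 0.025, Gabarapl2 0.035, Lamp1 0.19, Nbr1 0.14 and Psap 0.30. Library weights gave Atg12 0.0080, Atp6v1b2 0.079, Gabarapl2 0.14 and Nbr1 0.043, and median-of-ratios scaling gave Atg12 0.010 and Atp6ap1 0.0020. A term for Xist or Y-linked transcripts gave Atp6v1b2 0.0069, Gabarapl2 0.056, Nbr1 0.0050, Neu1 -0.021 and Scarb2 -0.026. Leaving out 1 library moved Atg12 from -0.056 to 0.033, Atg3 from -0.032 to 0.18, Atg5 from -0.17 to 0.032, Atg7 from -0.093 to 0.21, Atp6ap1 from -0.085 to 0.040, Atp6v1b2 from -0.094 to 0.023, Ctsb from -0.095 to 0.23, Gabarapl2 from -0.15 to 0.076, Map1lc3b from -0.22 to 0.25, Nbr1 from -0.12 to 0.037, Neu1 from -0.021 to 0.20, Npc1 from -0.041 to 0.11 and Scarb2 from -0.11 to 0.11. The cause of these changes was not tested. Doxorubicin libraries were the shallower, which limits their precision for the lowest members.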
